A study of Mus musculus with 12 samples.

Results

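The genes of matricellular proteins and of the enzymes that cross-link matrix fibres followed here number 10 of the 55413 genes of the GENCODE M21 annotation of the mouse mm10 genome. They were taken by name, with earlier results of these data known. Of these, 7 encode secreted matrix proteins (Postn, Fn1, Sparc, Tnc, Thbs1, Thbs2 and Ccn5) and 3 encode lysyl oxidases (Lox, Loxl1 and Loxl2). A promoter reaches from 1 kb before to 1 kb after any transcript start of the gene. H3K4me3 width counts the bases under peaks in the 5 kb before and after the gene's 5′ end. A domain that reaches past this window is counted only in part.

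Chromatin was profiled by CUT&RUN, a method in which an antibody guides a nuclease to its target inside permeable cells and the freed fragments are sequenced. The cells were C2C12, a mouse myoblast line. They were examined at day 0, at day 1 of differentiation in medium with 2% horse serum, and at day 5 as 2 fractions parted by mild trypsin, the fused myotubes and the mononucleated reserve cells. Each of the 4 cell states has 1 library for H3K4me3, the trimethylated histone mark of active promoters, 1 for MBD2, a protein that binds methylated CG and belongs to the NuRD chromatin complex, and 1 for a control IgG, which was not analysed here. All groups are the same line with no genetic change or drug named in the labels. The day 5 fractions rest on that separation, and whether the 3 antibodies of a state share a culture is not stated in the labels.

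Matricellular proteins sit in the extracellular matrix and tune how cells attach to it and respond to growth factors, and most are made in development, injury and fibrosis. Fibronectin, the product of Fn1, is instead a fibre-forming adhesion protein on which other matrix is assembled. Lysyl oxidases are copper enzymes that oxidise lysines of collagen and elastin so that the fibres cross-link. Myoblasts and the connective tissue cells of muscle both make such proteins. H3K4me3 forms a domain around the starts of active genes, and its width differs from gene to gene.

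RefSeq promoter sequences in the table used here (mm10 build, GRCm38.p6) matched 4 of the 10 genes, with 6 promoters. The 3 printed here are those that overlap no annotated exon. Each line holds the 250 bases before a start, 5′ to 3′ in the direction of transcription, with every CG in capitals.
Postn, upstream start, chr3:54359017-54359266, plus strand: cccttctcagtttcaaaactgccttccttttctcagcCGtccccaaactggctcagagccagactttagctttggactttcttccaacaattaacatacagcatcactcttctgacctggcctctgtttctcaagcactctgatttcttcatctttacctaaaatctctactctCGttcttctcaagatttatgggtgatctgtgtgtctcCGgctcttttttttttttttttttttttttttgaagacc
Thbs2, chr17:14694263-14694512, minus strand: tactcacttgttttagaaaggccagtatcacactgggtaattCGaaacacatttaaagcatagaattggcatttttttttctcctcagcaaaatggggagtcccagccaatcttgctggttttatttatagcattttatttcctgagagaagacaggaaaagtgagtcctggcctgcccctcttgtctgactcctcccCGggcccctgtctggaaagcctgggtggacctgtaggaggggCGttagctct
Tnc, chr4:64047016-64047265, minus strand: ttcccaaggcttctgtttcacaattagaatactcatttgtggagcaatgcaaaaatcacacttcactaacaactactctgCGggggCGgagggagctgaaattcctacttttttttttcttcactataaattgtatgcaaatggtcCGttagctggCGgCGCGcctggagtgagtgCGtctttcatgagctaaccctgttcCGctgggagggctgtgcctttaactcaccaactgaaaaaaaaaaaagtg
They hold 3, 3 and 8 CG, where the median of all 32817 RefSeq promoters of this length is 6. H3K4me3 peaks covered 250, 0, 151 and 0 of the Postn bases at day 0, at day 1, in the myotubes and in reserve cells. Of the Thbs2 bases they covered 250, 121, 6 and 44 in the same order. The Tnc bases were covered whole in all 4 libraries, and their last 220 bases also lay under the MBD2 peak of day 1.

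H3K4me3 lay at the promoters of 9 of the 10 genes at day 0, 9 at day 1, 7 in the myotubes and 9 in reserve cells. Over all genes the shares were 28.6%, 28.2%, 29.2% and 27.2%, and over protein-coding genes they were 56.5%, 56.2%, 57.3% and 54.8%. Of the 10 genes, Fn1, Sparc, Thbs1, Lox and Loxl1 had similar widths in all 4 libraries, and the other 5 varied. Ccn5 was marked at day 1 and in reserve cells only. Postn was marked at day 0 and in reserve cells. Loxl2 was marked at day 0 and day 1. Tnc and Thbs2 were marked throughout, with far narrower domains in myotubes. With 1 library per state the libraries of 2 states cannot be compared against replicate error, and neither a test nor an error between cultures can be given.

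**Figure D1:**
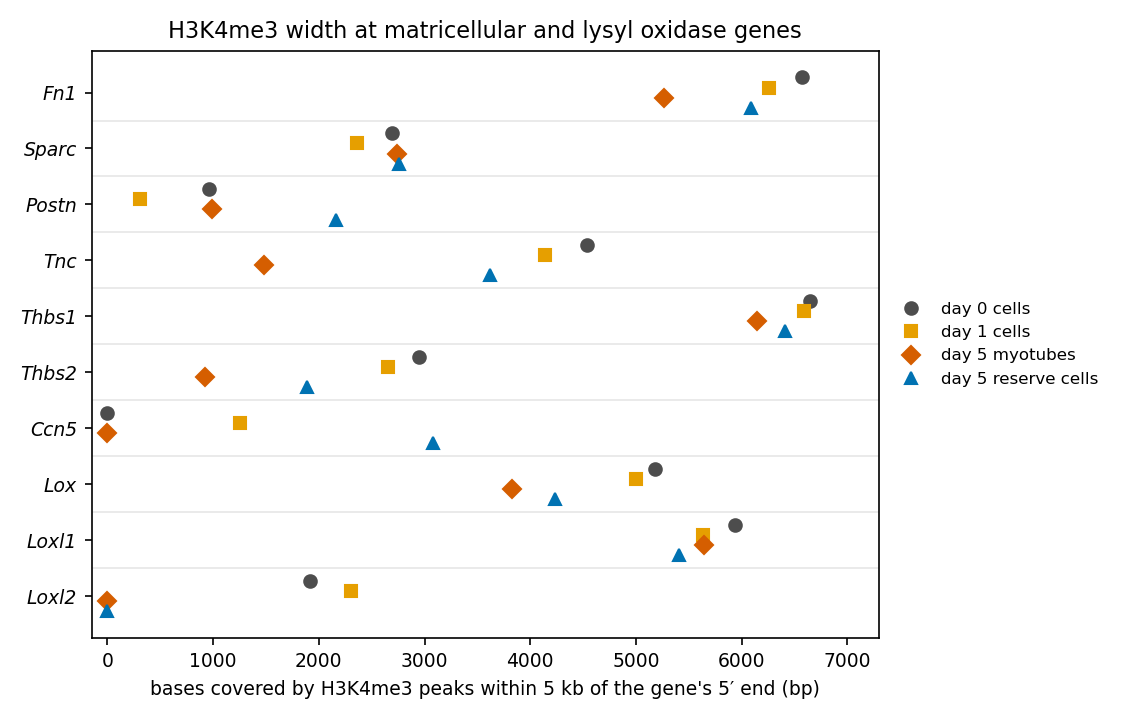
Bases covered by H3K4me3 peaks within 5 kb of the 5′ end of each gene (horizontal axis, bp), with 1 line per gene and 1 point per library. Circles stand for day 0, squares for day 1, diamonds for myotubes and triangles for reserve cells. Ccn5 stands at 0 at day 0 and in the myotubes and at 3077 bp in reserve cells, Loxl2 stands at 0 in both day 5 fractions, and Tnc and Thbs2 are lowest in myotubes at 1481 and 919 bp.

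The median width over the 10 genes was 3742 bp at day 0, 3396.5 bp at day 1, 2108 bp in the myotubes and 3346.5 bp in reserve cells. Those medians include unmarked genes. Over the 9, 9, 7 and 9 members with a marked promoter the median was 4537, 4143, 3827 and 3616 bp, and over all protein-coding genes with a marked promoter it was 2799, 2529, 2503 and 2215 bp. Widths of 5000 bp or more within the window were found at 4, 4, 3 and 3 of the 10 genes, against 9.46%, 6.93%, 10.3% and 3.84% of marked protein-coding genes. Sparc is not among them. Its long peaks measured 7055, 7564, 6754 and 7062 bp, but most of each lay outside the window. The domains lay mostly in the gene body. Among the marked genes of the set, the median share of covered bases downstream of the 5′ end was 78.5%, 80.3%, 80.2% and 87.3%, and among all marked protein-coding genes it was 68.7%, 69.8%, 68.9% and 70.1%.

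Ccn5 encodes a member of the CCN family that lacks the C-terminal domain of its relatives and restrains growth of several cell types (mm10 chromosome 2, 163820861 to 163833146, plus strand). Its H3K4me3 width was 0 at day 0, 1255 bp at day 1, 0 in the myotubes and 3077 bp in reserve cells. The day 1 peak reached from 422 bp upstream of the 5′ end to 832 bp downstream, with a pileup of 15 fragments at its summit. The reserve cell peak reached from 224 bp upstream to 2852 bp downstream with a pileup of 43. Both covered the start. In reserve cells 23.2% of marked protein-coding genes had wider H3K4me3 than Ccn5. The fold enrichment of a peak over its local background is the authors' own value, used here to place a peak within its list. It was 7.10 at day 1 and 20.7 in reserve cells, and 77.3% and 64.8% of the peaks of those lists had a higher one.

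Postn encodes periostin, a protein of fasciclin domains that binds collagen and integrins (chromosome 3, 54361109 to 54391037, plus strand). Its width was 956 bp at day 0, 310 bp at day 1, 990 bp in the myotubes and 2166 bp in reserve cells. Reserve cells alone had a peak over the annotated GENCODE starts. That peak was 1827 bp long, ran from 35 bp upstream to 1791 bp downstream and had a pileup of 35. At day 0 the peak that fell in the promoter window was 329 bp long, began 750 bp downstream of the 5′ end in an intron and had a pileup of 11. It covered no start and lay outside a window of 500 bp.

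Peaks stood upstream of Postn in all 4 libraries, outside its promoter window. They were 627, 310, 990 and 339 bp long, with pileups of 26, 6, 28 and 8. The day 0 peak ended 1791 bp upstream of the GENCODE 5′ end, the day 1 peak 2282 bp, the myotube peak 1942 bp and the reserve cell peak 2247 bp. RefSeq places 1 transcript start of Postn at 54359267 and 5 at 54361107. The day 0 peak (54358692 to 54359318) covered that upstream RefSeq start, and the peaks of the other 3 libraries ended before it. The upstream peak was thus the longer one at day 0 and the only one in myotubes, while in reserve cells the longer peak lay over the downstream starts. The 250 bases before the downstream RefSeq start hold 4 CG, and 33 of them were covered in reserve cells and 0 in each of the other libraries.

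**Figure D2:**
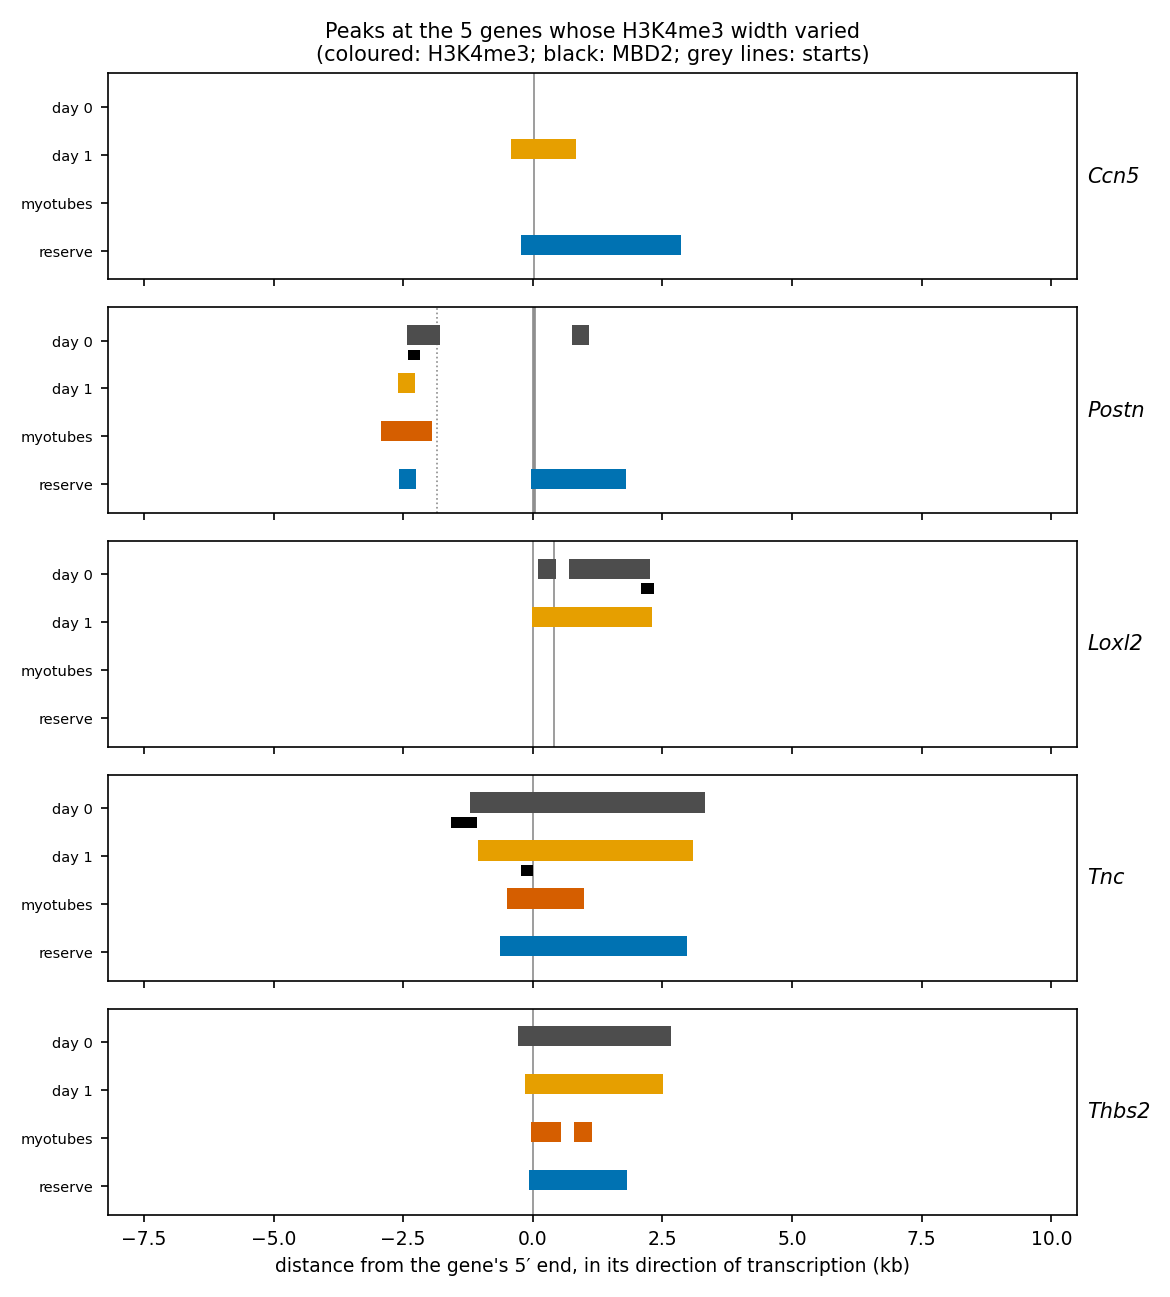
Extent of each peak near Ccn5, Postn, Loxl2, Tnc and Thbs2 along the distance from the gene's 5′ end in its direction of transcription (kb), with 1 line per cell state. Coloured bars are H3K4me3 peaks, thin black bars below them MBD2 peaks, grey lines GENCODE starts, and the dotted line is the upstream RefSeq start of Postn. The reserve cell bar of Postn reaches 1791 bp past the 5′ end, and the myotube bars of Tnc and Thbs2 are the shortest of their panels.

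Tnc encodes tenascin-C, a large many-armed glycoprotein that weakens adhesion to fibronectin (chromosome 4, 63959785 to 64047015, minus strand). Its width was 4537 bp at day 0, 4143 bp at day 1, 1481 bp in the myotubes and 3616 bp in reserve cells. Each was 1 unbroken peak over the upstream start, and none overlapped the annotated start at 64020725. The pileups were 194, 123, 16 and 74. The myotube domain was thus 32.6% as wide as at day 0 and 41.0% as wide as in reserve cells. At day 0, 13.9% of marked protein-coding genes had wider H3K4me3 than Tnc, and in myotubes 80.9% did.

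Thbs2 encodes thrombospondin-2, a trimeric protein that inhibits angiogenesis and affects collagen fibril assembly (chromosome 17, 14665500 to 14694235, minus strand). Its width was 2947 bp at day 0, 2650 bp at day 1, 919 bp in the myotubes and 1890 bp in reserve cells. The first, second and last of these were single peaks with pileups of 109, 74 and 26. In myotubes 2 short peaks of 583 and 336 bp stood in its place, each with a pileup of 10. The myotube width was 31.2% of the day 0 width and 48.6% of the reserve cell width. In the Thbs2 promoter printed above, H3K4me3 covered all 250 bases at day 0 and the 6 nearest the start in myotubes.

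Thbs1 encodes thrombospondin-1, which activates latent TGF-β (chromosome 2, 118111876 to 118127133, plus strand). Its width was 6647, 6588, 6146 and 6413 bp at day 0, at day 1, in the myotubes and in reserve cells. That is a range of 0.11 on the log2 scale of covered bases plus 100, the smallest of the 10 genes. The window cut off the downstream end of the domain at day 1 and in reserve cells, so part of this evenness comes from the window. The whole peaks were 6647, 6742, 6146 and 7446 bp long in the same order, so those of day 1 and of reserve cells were longer than that of day 0. Pileups were 224, 224, 127 and 151. Of the marked protein-coding genes 2.06%, 1.34%, 3.61% and 0.882% had wider H3K4me3. The peak also spanned a start of the noncoding Gm13986 on the opposite strand, and H3K4me3 does not tell strands apart.

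Fn1 (chromosome 1, 71585520 to 71653200, minus strand) had widths of 6573, 6263, 5264 and 6092 bp in the same order. In reserve cells the domain was split into a peak of 5748 bp and a second one of 804 bp within the gene. Pileups of the long peaks were 168, 164, 118 and 130. Of marked protein-coding genes 2.22%, 1.92%, 8.12% and 1.30% had wider H3K4me3. The Fn1 peak also held the start of the antisense gene Apol7d.

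Sparc encodes osteonectin, a collagen-binding glycoprotein of bone and remodelling tissue (chromosome 11, 55394500 to 55423183, minus strand). Its annotated starts lie at 55423183 and at 4 positions from 55420325 to 55419898. The long peaks covered the 4 downstream starts and not the 5′ end. They were 7055, 7564, 6754 and 7062 bp long at day 0, at day 1, in the myotubes and in reserve cells, with pileups of 217, 207, 123 and 188. Measured from the 5′ end, which leaves most of that domain outside the window, the width was 2697, 2365, 2735 and 2759 bp. Measured within 5 kb of any start it was 5982, 5650, 6020 and 6044 bp. The most upstream start itself had no peak over it in any library. Short peaks stood near it in myotubes (313 bp) and in reserve cells (336 bp). A group of 1 or 2 short peaks about 5 kb upstream of it was present in all 4 libraries.

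Lox encodes lysyl oxidase itself (chromosome 18, 52516067 to 52529867, minus strand). Its width was 5184 bp at day 0, 5002 bp at day 1, 3827 bp in the myotubes and 4238 bp in reserve cells, and the pileups of the long peaks were 92, 84, 65 and 76. The start of the antisense gene AC161119.1 lay under the same peak. Loxl1 encodes the isoform tied to elastic fibre upkeep (chromosome 9, 58287738 to 58313186, minus strand). Its width was 5934, 5639, 5649 and 5411 bp with pileups of 98, 93, 78 and 66. Both enzymes had a domain over their start in every library.

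Loxl2, a lysyl oxidase with scavenger receptor domains (chromosome 14, 69609068 to 69695834, plus strand), differed from the other 2 enzymes. Its width was 1918 bp at day 0, 2308 bp at day 1 and 0 in both day 5 fractions. At day 0 it had a peak of 345 bp with a pileup of 11, over the second of its starts (69609478), and one of 1573 bp with a pileup of 31. At day 1 a single peak ran from 10 bp upstream of the 5′ end to 2297 bp downstream with a pileup of 28. The lowest pileup that was called was 6 in the H3K4me3 lists of both day 5 fractions. A peak near 97 kb downstream of the Loxl2 start, beyond the gene, was called in all 4 libraries with pileups of 190, 178, 80 and 113. Whether that peak covers the start of another gene was not examined.

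**Figure D3:**
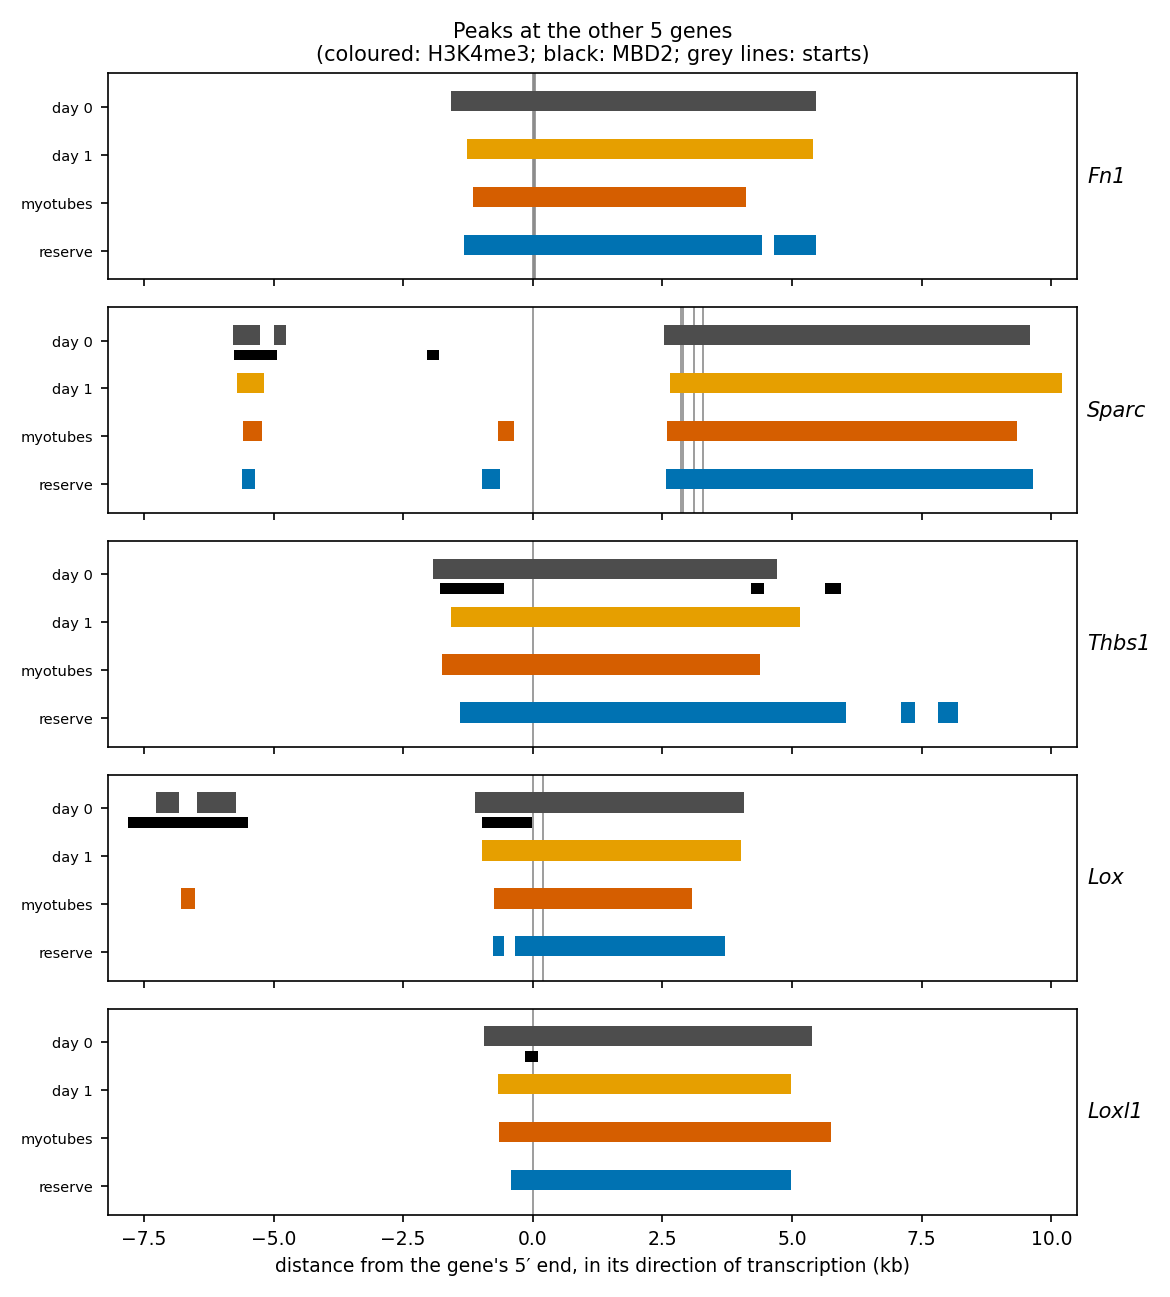
Extent of each peak near Fn1, Sparc, Thbs1, Lox and Loxl1, drawn as distance from the gene's 5′ end (kb) with 1 line per cell state, coloured bars for H3K4me3, thin black bars for MBD2 and grey lines for GENCODE starts. The long H3K4me3 bars have similar extents in all 4 states, the long Sparc bars begin over 2.5 kb downstream of its 5′ end, and black bars appear only on the day 0 lines.

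The libraries were then set against each other with a limit of 1.5 times, among genes with at least 500 covered bases in either library. The comparisons share libraries, day 0 above all, so their counts are not separate evidence. From day 0 to day 1, 1 gene (Ccn5) gained a promoter peak, as did 0.69% of unmarked genes, and 1 (Postn) lost it, as did 3.13% of marked genes. The Postn loss was not called with a window of 500 bp, where Postn had no call at day 0 either. The stronger 50% of each list, ranked by the deposited −log10 q-value, gave 0 gains and 0 wider genes. Postn was also narrower (7.98% of all tested genes were) and Ccn5 wider (2.16%). Fewer bases by any amount were covered at day 1 at 8 of the 10 genes and at 79% of all tested genes. The median width ratio of the set was 0.950, and of all tested genes 0.904.

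In myotubes, set against day 0, 2 genes (Postn and Loxl2) lost a promoter peak, against 4.11% of marked genes, and 0 gained one, against 2.56% of unmarked genes. The Postn loss was not called with a window of 500 bp, where Postn was unmarked in both libraries, or of 2 kb, where it was marked in both. Of 9 tested genes, 3 (Tnc, Thbs2 and Loxl2) were narrower, against 15.2% of all tested genes, and 0 were wider, against 12% of all. Fewer bases by any amount were covered at 7 of the 9, against 65.2% of all. The median ratio was 0.801 for the set and 0.893 for all genes. Of all tested genes 3.66% had a lower log2 ratio than Tnc, 3.60% a lower one than Thbs2 and 0.274% a lower one than Loxl2. The width of Postn was nearly equal in these 2 libraries, 956 and 990 bp, although its promoter call differed.

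In reserve cells, set against day 0, Ccn5 gained a promoter peak, against 0.52% of unmarked genes, and Loxl2 lost it, against 6.15% of marked genes. Postn (2.27 times as wide) and Ccn5 were wider, 2 of 10 tested against 1.44% of all genes. Thbs2 (64.1% of the day 0 width) and Loxl2 were narrower, 2 of 10 against 24.5% of all genes. Among the stronger 50% of each list 0 gained a peak, 4 lost it, 0 were wider and 4 narrower. The median ratio was 0.912 for the set and 0.779 for all genes. Of all tested genes 0.0637% had a higher log2 ratio than Ccn5 and 0.927% a higher one than Postn. Fewer bases by any amount were covered in reserve cells at 7 of the 10 genes and at 93.1% of all tested genes.

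Between the 2 fractions of day 5, the median ratio of the set lay below 1 and that of all tested genes above 1. From reserve cells to myotubes, 4 of 9 tested genes (Postn, Tnc, Thbs2 and Ccn5) were narrower, against 3.7% of all tested genes, and 0 were wider, against 23.2%. Any decrease at all was seen at 8 of the 9, against 23.6% of all tested genes, and Loxl1 was the exception (5411 and 5649 bp). Counted within 3 kb of the 5′ end it was 6, as the small differences at Thbs1 and Lox turned. The median ratio was 0.864 for the set and 1.13 for all genes. Promoter peaks were lost at Postn and Ccn5, against 1.83% of marked genes, and gained at 0, against 3.48% of unmarked genes. With a window of 2 kb Postn was marked in both fractions and its loss was not called. Of all tested genes 1.67% had a lower log2 ratio than Postn, 1.44% than Tnc, 1.92% than Thbs2 and 0.0450% than Ccn5. Among the stronger 50% of each list 0 were narrower, 3 wider and 3 had fewer bases by any amount, and the reserve cell peaks of Tnc, Ccn5, Postn and Thbs2 did not lie in that part of their list. The median fold enrichment of the lists was 39.8 in reserve cells and 9.55 in myotubes. Whether the difference would recur in other cultures cannot be told from 1 library each.

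**Figure D4:**
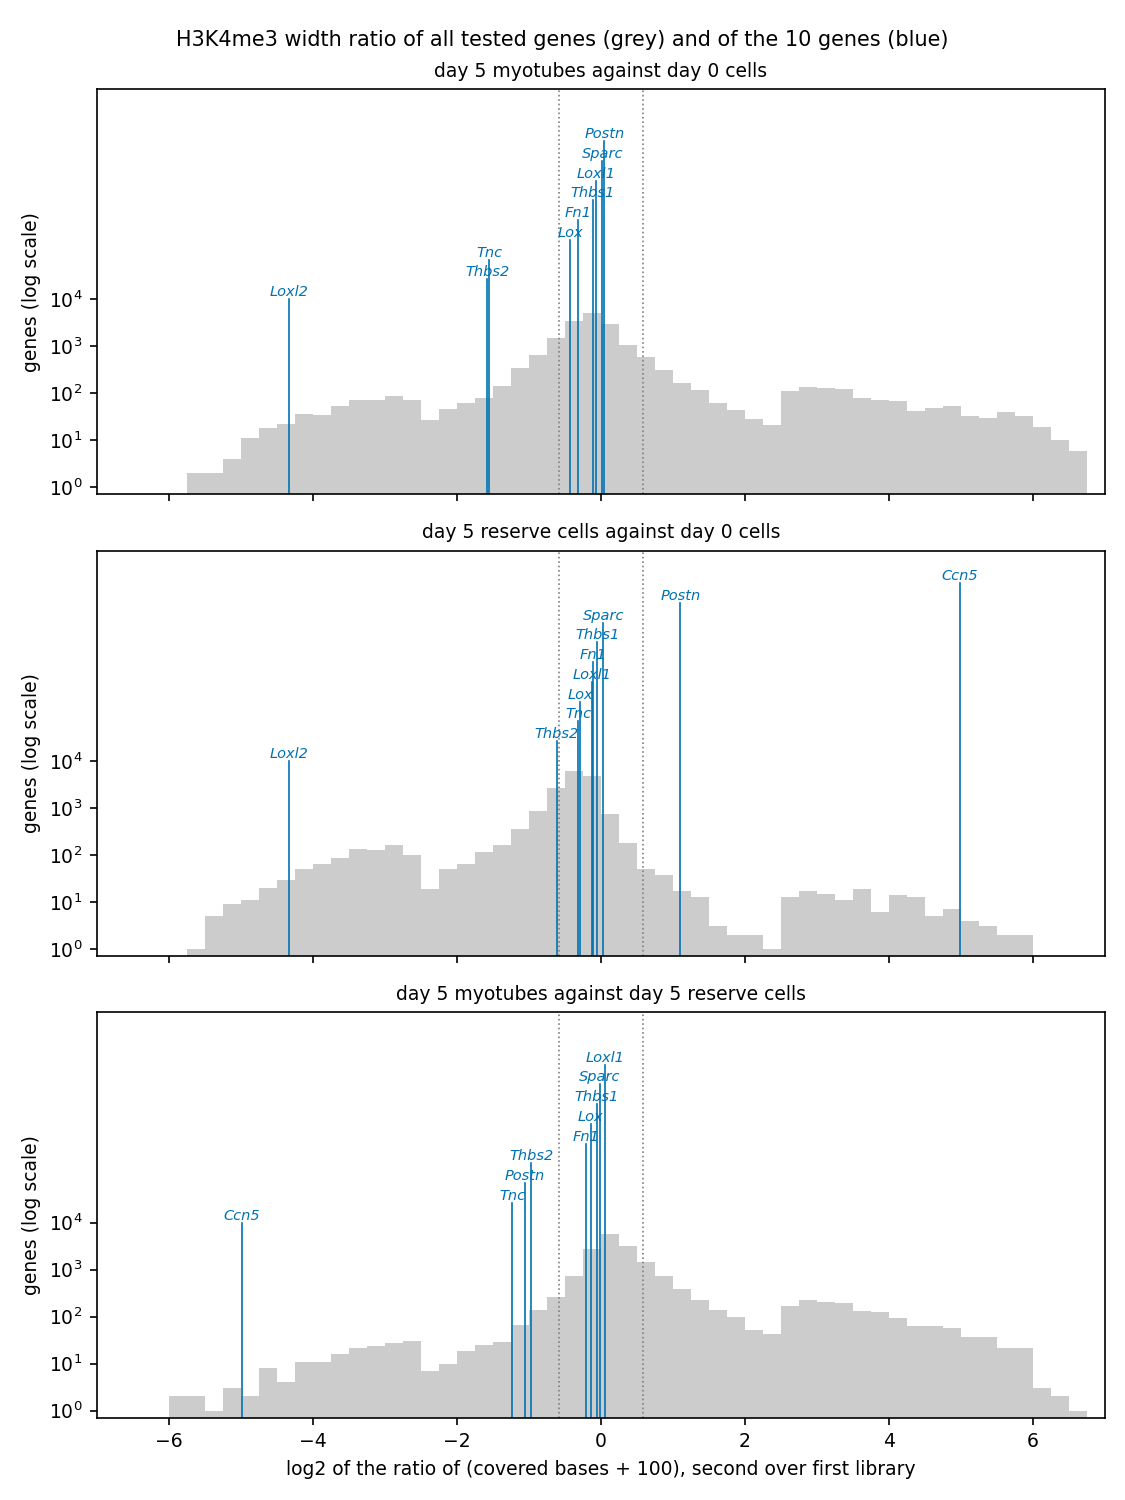
Histograms of the log2 ratio of H3K4me3 covered bases plus 100 (horizontal axis) over all tested genes (grey, number of genes on a log axis), with the 10 genes as blue lines where tested and dotted lines at the limits of 1.5 times. Line heights only separate the labels. In the panel of myotubes against reserve cells, Ccn5, Tnc, Postn and Thbs2 lie left of the lower limit and none lies right of the upper one.

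The genes whose H3K4me3 widths were most like those of the 2 most variable members were found among all protein-coding genes, by the Euclidean distance of log2(covered bases + 100) over the 4 libraries. Nearest to Ccn5 were Lifr (distance 0.10), with widths of 0, 1312, 0 and 2902 bp, Camk1g (0.93) with 0, 1204, 0 and 1569 bp, and Prelp (1.03) with 0, 585, 0 and 3806 bp. Lifr encodes the leukaemia inhibitory factor receptor and Prelp a small leucine-rich proteoglycan of the matrix. Nearest to Loxl2 were Hs3st5 (0.31) with 1865, 1848, 0 and 0 bp, Ptn (0.31) with 1593, 2022, 0 and 0 bp, and Gap43 (0.34) with 2205, 1879, 0 and 0 bp. Ptn encodes pleiotrophin, a heparin-binding growth factor, and Gap43 a growth cone protein.

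MBD2 lay at the promoters of 3 of the 10 genes at day 0, 1 at day 1 and 0 in the myotubes and in reserve cells. The shares of all genes were 6.36%, 0.547%, 0.336% and 0.141%, and of protein-coding genes 11.1%, 0.998%, 0.62% and 0.251%. The MBD2 lists themselves held 14948, 452, 288 and 111 peaks, so the calls at these genes and the list lengths move together. With the 111 strongest peaks of each list no promoter of the set was called in any library. At day 0 all 3 promoters also carried H3K4me3, as did the Tnc promoter at day 1. So did most genes with promoter MBD2, 3101 of 3527 at day 0 and 276 of 303 at day 1. Among H3K4me3-marked genes MBD2 lay at 19.6%, 1.77%, 1.04% and 0.432% of promoters in the 4 states.

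The strongest of these was at Lox, a peak of 960 bp (52529890 to 52530849) that ended 23 bp before the 5′ end, with its summit 209 bp upstream, a pileup of 18 and a fold enrichment of 14.0. It ranked 839 among the 14948 peaks of day 0. At Thbs1 a peak of 1241 bp (118110085 to 118111325) reached from 1791 to 551 bp upstream, with a pileup of 11 and a fold enrichment of 8.61. At Loxl1 a peak of 245 bp (58313086 to 58313330) covered the start, with a pileup of 9 and a fold enrichment of 7.35. All 3 lay wholly under H3K4me3. The lowest pileups called in the later MBD2 lists were 5, 7 and 8, so signal of the height seen at Loxl1 at day 0 would lie near the lowest that was called in reserve cells.

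At day 1 the MBD2 peak of Tnc (64047013 to 64047235) was 223 bp long and covered the start, over the last 220 of the Tnc bases printed above. Its pileup of 5 was the lowest in that list, and its fold enrichment was 4.57, outside the stronger 50%. At day 0 the Tnc promoter was not called. A day 0 peak of 509 bp with a pileup of 6 lay just outside the window, its near edge 1070 bp upstream of the start (64048085 to 64048593).

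Within 5 kb, MBD2 peaks were more frequent. At day 0 there were 9 peaks at 7 of the 9 H3K4me3-marked genes, against 25.4% of all marked genes, and 8 of the 9 peaks overlapped H3K4me3. In the later libraries the counts of genes were 1, 0 and 0, against 2.11%, 1.28% and 0.491% of marked genes. This background was not matched for H3K4me3 width, and no share of all MBD2 peaks under H3K4me3 is given here. Fn1 and Thbs2 had none there, nor did the unmarked Ccn5. At Postn a peak of 233 bp with a pileup of 6 lay wholly under the upstream H3K4me3 peak. It is shown here as the MBD2 peak of the gene whose upstream peak varied, 5′ to 3′ on the plus strand with CG in capitals.
Postn MBD2 peak, day 0, chr3:54358707-54358939: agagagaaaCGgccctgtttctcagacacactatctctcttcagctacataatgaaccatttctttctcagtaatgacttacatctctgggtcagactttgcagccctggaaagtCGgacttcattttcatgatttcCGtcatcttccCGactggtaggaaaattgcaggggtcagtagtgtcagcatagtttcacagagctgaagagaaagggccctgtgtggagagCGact
It holds 5 CG. Sparc had peaks of 235 and 818 bp upstream, the first of them the only one of the 9 away from H3K4me3, and Thbs1 and Loxl2 each had a short one in an intron (244 and 250 bp).

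CG density, which bears on what MBD2 can bind, differed widely among these peaks. It was 4.90 CG per 100 bp at Loxl1, denser than all but 9.07% of the day 0 list. Thbs1 had 2.98 at its promoter, Postn 2.15, Sparc 1.96 and 1.70, Tnc 1.57 and Lox 1.25. The intron peaks of Thbs1 and Loxl2 had 0.410 and 0.400. The median of the day 0 list was 1.24. The day 1 peak of Tnc had 3.59, in a list with a median of 2.10. Methylation itself was not measured.

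The promoters were searched on both strands for the letters TATAAA, the core of the TATA box, CAGCTG, an E-box of myogenic factors, TGANTCA, the AP-1 site, GGAATG, the TEAD site, CAGAC, a SMAD site, and GGGCGG, the GC box. Among all RefSeq promoters of this length 12.4%, 13.0%, 6.75%, 12.6%, 42.2% and 32.7% hold them. TATAAA was found in Thbs2 and in both overlapping Tnc promoters, and at the downstream start of Postn, where its last base lies 21 bp before the start. CAGCTG was found in Sparc only, GGGCGG in Tnc only, and TGANTCA and GGAATG in none of the 6. CAGAC was found in Sparc, Thbs2, the upstream Postn promoter and the downstream one of Tnc. A match of letters is not a bound site.

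A list of 21 further genes held relatives from the lysyl oxidase, thrombospondin, tenascin, SPARC and CCN families, together with Tgfbi and Spp1. Of these, 11, 11, 12 and 11 were marked with H3K4me3 in the 4 libraries, against 56.5%, 56.2%, 57.3% and 54.8% of protein-coding genes. Between day 0 and myotubes 8 of 13 tested were narrower and 2 wider, against 15.2% and 12% of all tested genes. To reserve cells 6 of 11 were narrower and 0 wider, against 24.5% and 1.44%. From reserve cells to myotubes 5 of 13 were narrower and 3 wider, against 3.7% and 23.2%. Loxl3, another lysyl oxidase, had 6343, 4897, 2582 and 4109 bp. Spp1, which encodes osteopontin, had 5543, 4042, 1449 and 2565 bp and was the only gene of this list with MBD2 at its promoter, at day 0 (pileup 5). Ccn2, the connective tissue growth factor, had 4840, 3538, 2462 and 2556 bp. Smoc1 and Ccn6 were wider in myotubes, with 655 and 795 bp there.

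Among 19 genes of elastic fibres and matrix assembly 11, 14, 11 and 13 were marked, against 54.8% to 57.3% of protein-coding genes. Set against day 0, 7 of 12 were narrower and 1 wider in myotubes, where the shares of all tested genes were 15.2% and 12%. In reserve cells 4 of 12 were narrower and 1 wider, where the shares were 24.5% and 1.44%. Fbn1, which encodes fibrillin-1, the backbone of microfibrils, had 4027, 4152, 1877 and 4079 bp. Fbln1, for fibulin-1, had 2666, 2236, 0 and 353 bp and lost its promoter call in myotubes. Mfap2, Emilin1 and Tgm2 gained a call at day 1. MBD2 lay at the promoters of Efemp2 and Ltbp1 at day 0, with pileups of 5 and 10.

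All 14 collagen and cross-linking partner genes were marked in all 4 libraries, against 54.8% to 57.3% of protein-coding genes. None passed the limit from day 0 to day 1, where 7.98% of all tested genes were narrower and 2.16% wider. In myotubes 4 were narrower and 2 wider than at day 0, against 15.2% and 12% of all tested genes. Those narrower were Col1a2 (4711, 5518, 1122 and 5793 bp), Col3a1 (6495, 6865, 2740 and 5626 bp), Col5a2 (5806, 5321, 2866 and 5304 bp) and Tll1 (2594, 1740, 1704 and 2215 bp), which encode fibrillar collagen chains and a procollagen protease. Those wider were P4ha1 (4109, 4286, 6512 and 3873 bp) and P4ha2 (1970, 1579, 4131 and 1518 bp), which encode the catalytic subunits of prolyl hydroxylase. Col1a1 had MBD2 at day 0 with a pileup of 4.

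The H3K4me3 lists held 15920 to 26034 peaks with median widths of 1217 to 1936 bp. The myotube list was the longest and had the narrowest peaks, and the reserve cell list was the shortest. Median fold enrichment was 29.0 at day 0, 38.6 at day 1, 9.55 in the myotubes and 39.8 in reserve cells. Marker genes were examined as a check of the labels. Of 12 genes of differentiated muscle, 0, 12, 12 and 9 carried promoter H3K4me3, with a median width of 6829.5 bp in the myotubes and 2185.5 bp in reserve cells, and 5 of 5 myoblast line genes carried it in all 4 libraries. Of 5 fibroblast genes 1, 2, 1 and 2 were marked, with summed widths of 4513, 6470, 2098 and 4168 bp made up of Pdgfra (4513, 4464, 2098 and 3568 bp) and Dcn (0, 2006, 0 and 600 bp), while Lum, Tcf21 and Dpt were at 0 throughout. Of 4 endothelial genes 1, 2, 1 and 0 were marked, of 4 macrophage and blood genes 0, 0, 1 and 0, and of 4 adipocyte genes 1 in each library. Dcn was marked in the same libraries as Ccn5. The part of other cell types, of peak list length or of the lower myotube enrichment in the widths above was not tested.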

How the data were processed

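H3K4me3 and MBD2 CUT&RUN peak lists of 8 libraries were used. The submitters' processing notes name Trim Galore, Bowtie2, SAMtools and MACS2 and the mm10 build. Not given in the sources used here are versions, settings, read totals and whether IgG served as control. A deposited list gives peak positions, lengths and summits. The deposited pileup is a signal, the fragments over the summit, and was whole in every list. Fold enrichment, as deposited, is a ratio of pileup to local background, per the file headers. The −log10 p-value and the deposited −log10 q-value had damaged column names and were identified by their place. Neither is compared between libraries. The deposited −log10 q-value ranked the peaks within each list for the alternatives that kept the stronger part or equal numbers of peaks. Those alternatives thus rest on a column identified by its place alone.

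The day 5 titles are abbreviated and were taken to mean the 2 fractions that the series' design text names.

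The gene models were the basic set of GENCODE M21. A promoter was called with an overlap of at least 1 bp. A width was called narrower or wider past 1.5 times, over all genes with at least 500 covered bases in either library, which give the background shares. Depth limits what is called. The lowest local background, derived from pileup and fold, was 1.47, 1.25, 1.22 and 1.08 fragments per base for H3K4me3 and 0.360, 0.286, 0.776 and 0.947 for MBD2, in the order day 0, day 1, myotubes and reserve cells. With 1 library per group, no test was run.

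The members and gene lists were chosen with earlier results of these data known. The rule for other named genes took up to 4 genes per list, comparison and direction by the largest difference in covered bases, any list gene with promoter MBD2, and the 3 genes nearest to each of the 2 members with the largest range. Of the genes so taken, some are given by count only. Loxl3, Spp1, Ccn2, Smoc1, Ccn6, Fbn1, Fbln1, Mfap2, Emilin1 and Tgm2 were picked among them after their values were seen. Scripts in Python 3.11.15 with pandas 2.3.3, numpy 2.4.6 and pysam 0.24.0 were tested on simulated data, where the calls and widths of all 200 planted genes were recovered. Alternatives were other windows, limits, overlaps, transcripts and parts of the lists.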

Additional observations from a re-analysis of the deposited data

How the results depend on the processing

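No paired analysis was possible because each group has 1 library and the labels give no replicate numbers that could pair libraries. With 1 library per group no replicate could be left out. Of 172 counts under an alternative, 140 stayed within 1.5 times of the reported count and 32 did not. Requiring an overlap of at least 200 bp, using all rather than basic transcripts, or counting bases within 5 kb of any start moved none of the counts past that limit. The last of these and the use of all transcripts were chosen after seeing the data.

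Keeping the stronger 50% of each list moved the most. It removed the calls of Ccn5 and Loxl2 in every library, of Postn where it had one, of Thbs2, Lox and Loxl1 at day 1, of Tnc and Thbs2 in myotubes, and of Tnc, Thbs2, Lox and Loxl1 in reserve cells. It left H3K4me3 at 4 promoters at day 1 and 3 in reserve cells, and MBD2 at 0 at day 1. From day 0 to day 1 it gave 0 gains, 3 losses, 3 narrower and 0 wider genes, and from day 0 to myotubes 1 wider. From day 0 to reserve cells it gave 0 gains, 4 losses, 4 narrower and 0 wider. From reserve cells to myotubes it gave 2 gains, 0 losses, 0 narrower, 3 wider and 3 with fewer bases by any amount, and the log2 ratio turned from -1.06 to 3.45 at Postn and from -0.14 to 5.30 at Lox. With equal numbers of peaks per antibody (15920 for H3K4me3, 111 for MBD2), MBD2 lay at 0 promoters at day 0 and 0 at day 1, there were 0 losses at day 1, 1 wider gene in myotubes against day 0 and 2 gains in reserve cells against day 0. Thbs2 was then not called in myotubes. The losses from day 0 to myotubes stayed at 2 but were Thbs2 and Loxl2, and those from reserve cells to myotubes rose to 3. A window of 500 bp gave 0 losses at day 1, 1 loss in the myotubes and 2 gains in reserve cells, each against day 0. A window of 2 kb gave MBD2 at 6 promoters at day 0, 1 loss from day 0 to myotubes and 1 loss from reserve cells to myotubes. The gene 5′ end alone gave 1 gain from day 0 to myotubes and 2 gains from day 0 to reserve cells. Counting within 3 kb gave 1 wider gene from day 0 to myotubes, and a limit of 2 times gave 1 narrower gene from day 0 to reserve cells. Of 180 single-gene ratios under an alternative, 166 stayed on their side of the limit, 11 passed it in the same direction, 1 no longer did and 2 reversed (Postn and Lox, above). Ratios with 0 bases in both libraries under an alternative are not among the 180. With the stronger 50% this left out ratios of Ccn5, Loxl2, Postn, Tnc and Thbs2. All of those left out but Loxl2 from day 0 to day 1 had passed the limit in the main setting, so the 180 understate how many calls were lost. Among the 166, 5 turned direction without passing the limit in either setting, 3 at Sparc, 1 at Thbs1 and 1 at Lox.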

Other observations

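Peaks away from the promoters of the members, searched up to 20 kb beyond each gene, also differed between libraries. Whether such peaks of either antibody cover starts of other genes was not examined. Loxl1 had an H3K4me3 peak within the gene, 15 kb or so from its start, in all 4 libraries, of 2199 bp at day 0, 2010 bp at day 1, 4064 bp in the myotubes and 304 bp in reserve cells, with pileups of 34, 24, 31 and 9. Downstream of Loxl1, about 37 kb from its start, H3K4me3 peaks of 1755, 340 and 573 bp were called at day 0, at day 1 and in myotubes, and none in reserve cells. Near the 3′ end of Loxl2 a peak of 1417 bp at day 0 and one of 246 bp at day 1 were called, 2 short ones of 337 and 239 bp in myotubes, and none in reserve cells.

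Beyond 5 kb, MBD2 had 18 peaks at 9 of the 10 genes at day 0, of which 5 overlapped H3K4me3. The share of all genes with such a peak was not computed, and the span searched grows with gene length. Whether this count is high for genes of such length was thus not tested. The longest of the 18 peaks, 2303 bp with a pileup of 24, lay 5502 to 7804 bp upstream of Lox. Of its bases 1221 were under H3K4me3 peaks of day 0. Its fold enrichment of 18.4 was above that of the Lox promoter peak in the same list. One of 2217 bp with a pileup of 19 lay downstream of Loxl1, with 1423 bases under H3K4me3. At day 1 the only such peak lay upstream of Ccn5 (225 bp, pileup 6), where a day 0 peak of 737 bp also stood. There was none in either fraction of day 5. These places were picked after their values were seen.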
